A study of Mus musculus with 7 samples.

Results

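The genes described here encode enzymes that build nucleotides and the folate-bound carbon units used in building them. They were listed by function, as 14 genes of purine synthesis and salvage, 13 of pyrimidine synthesis and salvage, 5 of folate metabolism, and 4 whose products act on purine and pyrimidine nucleotides alike, which makes 36 in all. Of these, 30 had a probe set that the platform annotation gives to a single gene symbol, and the brightest such probe set, by mean over the 7 arrays, stood for its gene. Tyms, the thymidylate synthase gene, was too dim to be tested, which left 29 of the 8077 genes tested. Pfas, Atic, Impdh2, Gmps, Dctd and Mthfd1l were not analysed here.

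RNA was measured on 7 arrays, 1 per sample, in LSK cells sorted from mouse bone marrow, a gate of cells without lineage markers and with Sca-1 and c-Kit, among which are the blood stem cells and the first progenitors. The 4 Lkb1 KO samples (numbers 4 to 7) came from mice, adult when treated, with floxed Lkb1 alleles (Lkb1 L/L) and a tamoxifen-activated Cre recombinase at the Rosa26 locus (rosa26CreERT2), and the 3 Lkb1 WT samples (numbers 5 to 7) from Lkb1 L/L mice that lacked the Cre. Tamoxifen was given to all the mice for 5 days, cells were taken 1 day later, and the strain was C57BL/Ka-CD45.2:Thy-1.1 throughout. Cre was present in KO mice alone, so its presence and the loss of Lkb1 (gene Stk11) cannot be told apart, and a Cre at Rosa26 is not restricted to blood cells. From 15000 to 20000 sorted cells per sample, about 10 ng of RNA was amplified. The labels give neither age nor sex and do not tie each sample to an animal of its own, so the spread behind every p-value may be technical, and the number of arrays limits the precision.

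A nucleotide is a base joined to a sugar and phosphate. The purine ring is built stepwise on phosphoribosyl pyrophosphate, and the pyrimidine ring is built first and then joined to it, while salvage enzymes recycle ready-made bases and nucleosides. Folate enzymes carry carbon units taken from serine, which enter the purine ring and turn deoxyuridylate into thymidylate. Ribonucleotide reductase then makes the deoxynucleotides for DNA, and its genes and those for thymidine kinase and dUTPase are known to be transcribed mostly in dividing cells. In bone marrow these pathways are known for their demand by dividing progenitors, and antimetabolite drugs block them.

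Before the members, some facts of the libraries bear on them. Deposited signals were brighter in KO arrays, with a trimmed mean of 388 ± 31 in Lkb1 KO and 297 ± 59 in Lkb1 WT (SD, n = 4 and 3, exact permutation p = 0.0286, the smallest that 35 splits can give), and the median tested gene was 0.34 log2 units brighter in KO. The arrays were therefore quantile normalised, and all values below are relative to that scale. For the Actb control probe sets, 3' signal over 5' signal ran from 11.4 to 12.3 in Lkb1 KO and from 12.6 to 13.1 in Lkb1 WT. In the counts that follow, a gene rose or fell if its limma p, adjusted over all 8077 genes tested, was under 0.05. Of all these genes, 2.48% rose and 2.96% fell. Among 23 tested genes of DNA replication 8 rose and none fell, with a summed signal of 51918 to 56373 in Lkb1 KO and 41459 to 44144 in Lkb1 WT. Among 17 genes of the G2 and M phases 4 rose and none fell, with sums of 21085 to 24045 in Lkb1 KO and 17688 to 19742 in Lkb1 WT. Among 12 granulocyte and monocyte markers 10 fell and none rose, with sums of 13352 to 19445 in Lkb1 KO and 33756 to 46125 in Lkb1 WT. The 2 others, Csf1r and Itgam, went the other way, with each KO sample above each WT sample. Their log2 fold changes were 0.75 for Csf1r (limma, adjusted p = 0.0822) and 0.40 for Itgam (adjusted p = 0.0663). Stk11 itself averaged 6.82 ± 0.33 in Lkb1 KO and 7.38 ± 0.24 in Lkb1 WT (log2, SD, n = 4 and 3), a log2 fold change of -0.56 ± 0.19 (SE) with overlap between the groups (adjusted p = 0.117), and whether its probe set lies in the deleted part is not given in the sources used here. Of the markers of the sorted gate, Kit was far above background on every array and Ly6a was not analysed here. Of 8 tested genes from a wider list of LSK cell markers, 2 fell, Hlf and Kit itself. The 9 measured genes of that list summed to 11103 to 12018 in Lkb1 KO and 14174 to 15395 in Lkb1 WT. Of 6 erythroid markers 1 fell, with sums over 8 of 3121 to 4183 in Lkb1 KO and 4577 to 6176 in Lkb1 WT, and of 6 megakaryocyte markers 1 fell, with sums over 7 of 2891 to 4466 in Lkb1 KO and 5321 to 5652 in Lkb1 WT. Of 7 stroma and endothelium markers 1 was bright enough to test and fell, with sums of 238 to 362 in Lkb1 KO and 432 to 629 in Lkb1 WT. B cell markers summed to 602 to 748 in Lkb1 KO and 612 to 816 in Lkb1 WT with Cd79a, Pax5 and Ebf1 at or under background, and T and NK cell markers to 59 to 89 in Lkb1 KO and 47 to 88 in Lkb1 WT with Cd3e, Cd3g, Cd4 and Ncr1 there. In such bulk samples fewer cells of a type and less RNA per cell cannot be told apart, and the part of these shifts in the results below was not tested.

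Nucleotide and folate enzyme genes were mostly higher in Lkb1 KO, by modest amounts. Of the 29 tested, 6 rose and none fell (limma, Benjamini-Hochberg adjusted p under 0.05 over all 8077 genes), a share of 20.7%, where 2.48% of all genes tested rose and 2.96% fell, 5.44% in all. The members were listed with earlier results of these data known, so their shares beside all genes are a description and not a test. The 6 were the CTP synthase gene Ctps, the dUTPase gene Dut, the ribonucleotide reductase subunit genes Rrm1 and Rrm2, the serine hydroxymethyltransferase gene Shmt1 and the phosphoribosyl pyrophosphate synthetase gene Prps2. The log2 fold changes of the 29 ran from -0.08 to 0.70, with 25 above 0 and 4 below, where 47.6% of all genes were above 0, and their median was 0.31 beside -0.02 over all genes tested. In 18 members (62.1%) each KO sample lay above each WT sample, as in 11.4% of all genes, and in no member did each lie below, as in 12.7% of all genes. With an unadjusted p under 0.05, 20 members were higher and none lower, where 11.7% of all genes were higher and 13.6% lower.

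The count of 6 rested on the full set of arrays. It was 2 without Lkb1 KO 5 and 3 without Lkb1 KO 6, and 0 without any of Lkb1 KO 4, Lkb1 KO 7, Lkb1 WT 5, Lkb1 WT 6 or Lkb1 WT 7. Of the 6, Ctps, Dut, Shmt1 and Rrm1 each passed in 1 of these 7 fits, and Rrm2 and Prps2 in 0. Tk1, which is not among the 6, also passed in 1 of them. The median of the members less that of all genes tested stayed between 0.25 and 0.41 in those 7 fits, beside 0.33 with all arrays. Under the scaling as deposited 20 members passed, with 1372 genes of the array higher and 43 lower, and after median centring 11, with 545 higher and 166 lower, beside 200 and 239 here. Under both of those scalings Ctps2, Cmpk1, Dck and Nme1, the 4 members below 0, were above 0, while Nme2 was at 0.03 after median centring. With the Actb ratio, whose values do not overlap between the groups, added to the model, no gene of the array passed by limma (2 members at an unadjusted p under 0.05), and that median was 0.17. Just outside the threshold lay the thymidine kinase gene Tk1, at an adjusted p of 0.0582, and the mitochondrial gene Shmt2, at 0.0611, while Prps2 lay just inside it at 0.0313.

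**Figure D1:**
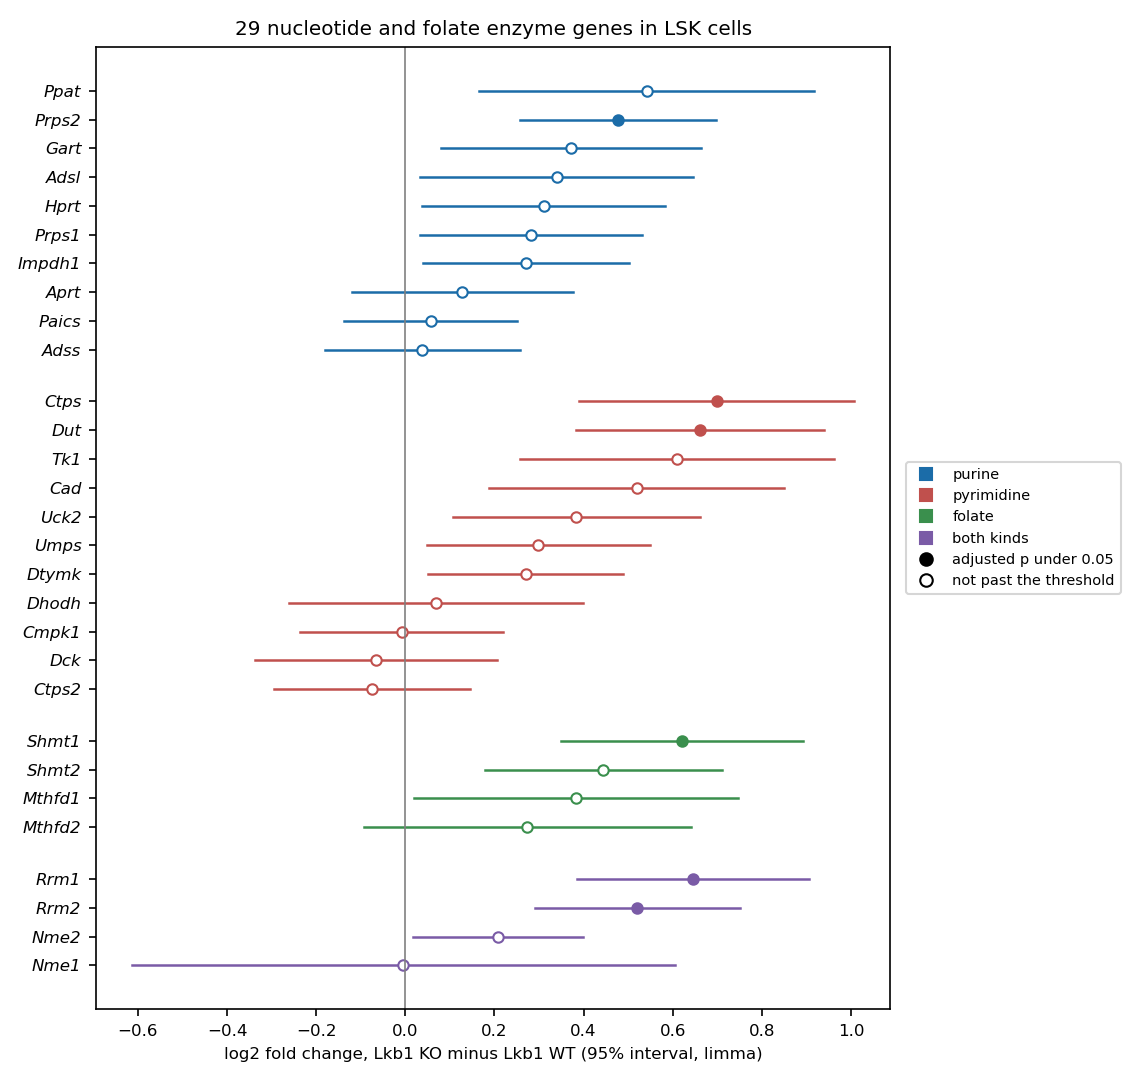
Log2 fold change (x axis, Lkb1 KO minus Lkb1 WT, on the log2(signal + 16) scale) of each of the 29 tested members (rows, by class), with lines for the 95% interval from limma. Filled points are the 6 members past the threshold, and 25 of the 29 points lie above 0.

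Against all genes, the members' fold changes spread from the upper end to the middle. Ctps ranked 85th, Dut 102nd, Rrm1 118th and Shmt1 132nd of 8077 genes by fold change, and Ctps2, the lowest of the members, ranked 4748th. Over all genes tested, log2 fold changes ran from -2.99 to 1.66.

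**Figure D2:**
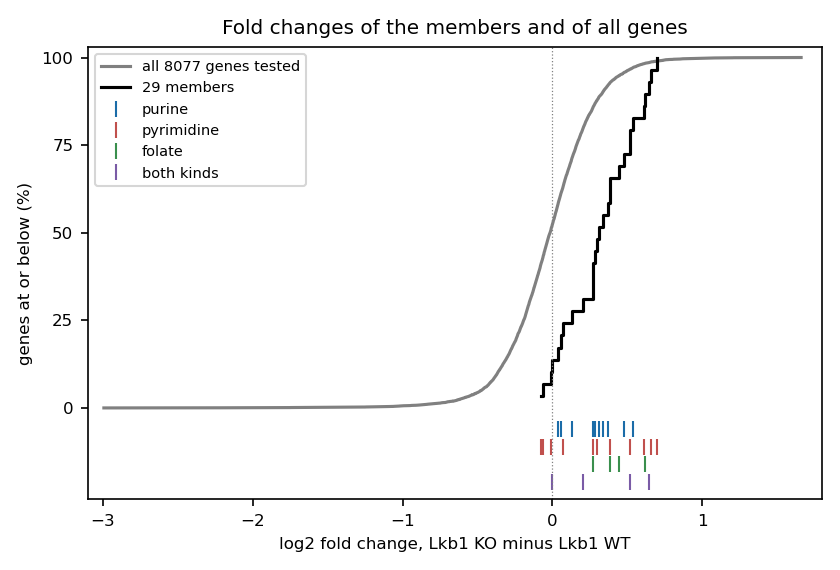
Cumulative share of genes (y axis, %) at or below each log2 fold change (x axis, Lkb1 KO minus Lkb1 WT) for the 29 members and all 8077 genes tested, with a tick for each member below the curves by class. The members' curve lies to the right, with a median of 0.31 beside -0.02.

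By sample, the members did not move as a block of equal size. The median deviation of the 29 from the midpoint of the group means was 0.21, 0.10, 0.10 and 0.20 log2 units in Lkb1 KO 4 to 7, against -0.18, -0.07 and -0.21 in Lkb1 WT 5 to 7. Lkb1 KO 4 and Lkb1 KO 7 were thus the highest and Lkb1 WT 7 the lowest. Lkb1 KO 4 held the highest value of 11 members and Lkb1 KO 7 of 9, while Lkb1 WT 7 held the lowest value of 13, Lkb1 WT 5 of 8 and Lkb1 WT 6 of 4. Lkb1 KO 4 was the brightest array as deposited and Lkb1 WT 7 the dimmest. The 23 replication genes gave medians of 0.25, 0.19, 0.14 and 0.23 in Lkb1 KO 4 to 7, against -0.15, -0.16 and -0.20 in Lkb1 WT 5 to 7 on the same measure.

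**Figure D3:**
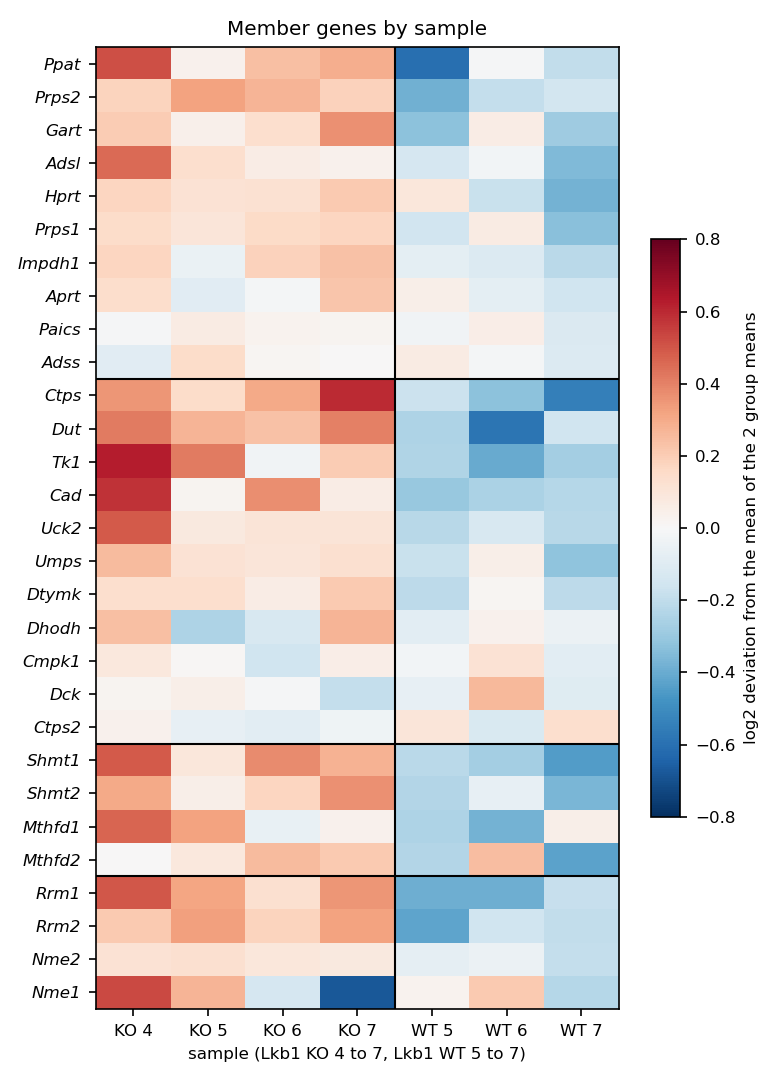
Deviation of each tested member (rows, by class in the order purine, pyrimidine, folate and both kinds) from the midpoint of its group means, in log2 units by colour, in each sample (columns, Lkb1 KO left and Lkb1 WT right). Lkb1 KO 4 held the highest value of 11 members, and Lkb1 WT 7 the lowest of 13.

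Of the 4 genes whose products act on both kinds of nucleotide, 2 rose and none fell, with a median log2 fold change of 0.36. Of all genes tested, 2.48% rose and 2.96% fell. Ribonucleotide reductase, which turns ribonucleotides into deoxyribonucleotides, has a large catalytic subunit encoded by Rrm1 and a small radical-bearing subunit encoded by Rrm2. Rrm1 had normalised signals of 3162, 2778, 2435 and 2853 in Lkb1 KO 4 to 7, against 1696, 1698 and 1962 in Lkb1 WT 5 to 7. Normalised signal is the array intensity after quantile normalisation, in array units. The KO values were above all WT values, by a log2 fold change of 0.65 ± 0.11 (SE), adjusted p = 0.0245. For Rrm2 the signals were 2959, 3208, 2892 and 3194 in Lkb1 KO 4 to 7, against 1900.0, 2282 and 2223 in Lkb1 WT 5 to 7, again without overlap (0.52 ± 0.10 (SE), adjusted p = 0.0283). The other probe sets of Rrm2 differed by 0.94 and 0.69 log2 units and did not overlap between the groups either (exact permutation p = 0.0286 both times, the smallest 35 splits allow), while a dim one of Rrm1 differed by 0.24 with overlap (exact permutation p = 0.314). The alternative small subunit gene Rrm2b, a p53 target, was at -0.30 (adjusted p = 0.221).

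The 250 bases before the annotated start of both reductase genes are shown with those of Shmt1 and Ctps, 4 of the 6 genes that rose, chosen after the search as the 3 with a motif and 1 without. The windows of Dut and Prps2, not shown, held none of the motifs. Sequences are from RefSeq, build GRCm38.p6, 5′ to 3′ on the gene's strand, and capitals mark motifs on either strand. One is CCAAT, known as the site of the factor NF-Y. The others are forms of the core that E2F factors bind, of which the first searched was TTGGCGC. The next form that was searched for in the same windows was TTCCCGC. Another form of this core that was included in the search was TTGCCGC. The last of the forms, searched in the same way as the others, was TTCGCGC. The E-box CACGTG was searched too, and in these windows no motif overlapped another.
Rrm1 (chr7:102441445-102441694, plus strand): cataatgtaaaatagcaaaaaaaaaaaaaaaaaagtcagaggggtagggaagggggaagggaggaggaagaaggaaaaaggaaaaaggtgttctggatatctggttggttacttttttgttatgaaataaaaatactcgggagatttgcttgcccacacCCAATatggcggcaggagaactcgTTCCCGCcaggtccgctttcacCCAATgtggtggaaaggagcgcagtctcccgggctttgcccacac
Rrm2 (chr12:24708004-24708253, plus strand): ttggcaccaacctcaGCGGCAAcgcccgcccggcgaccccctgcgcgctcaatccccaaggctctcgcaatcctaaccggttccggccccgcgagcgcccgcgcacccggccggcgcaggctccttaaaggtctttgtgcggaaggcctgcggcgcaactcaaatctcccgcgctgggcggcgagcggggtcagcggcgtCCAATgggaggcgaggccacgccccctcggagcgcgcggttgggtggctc
Shmt1 (chr11:60811266-60811515, minus strand): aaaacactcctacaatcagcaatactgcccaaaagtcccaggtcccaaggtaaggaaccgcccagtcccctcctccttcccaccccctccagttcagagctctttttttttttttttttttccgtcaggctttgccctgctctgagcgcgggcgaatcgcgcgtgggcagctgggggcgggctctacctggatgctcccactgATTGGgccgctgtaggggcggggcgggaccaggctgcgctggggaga
Ctps (chr4:120570277-120570526, minus strand): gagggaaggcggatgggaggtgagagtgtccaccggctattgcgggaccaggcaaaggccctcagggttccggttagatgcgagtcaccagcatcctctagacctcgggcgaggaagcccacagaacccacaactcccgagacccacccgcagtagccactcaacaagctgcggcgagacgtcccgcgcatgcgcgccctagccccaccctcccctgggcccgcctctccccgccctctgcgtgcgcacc

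Rrm1 held 2 CCAAT motifs and 1 E2F core in this window, Rrm2 held 1 of each, Shmt1 held 1 CCAAT and Ctps held none in the window of its outermost start and 1 E2F core in that of its inner start. Counting the first window of each of the 6 genes that rose, 2 held an E2F core, 3 held CCAAT and 0 held CACGTG. Of 42 such windows of 34 matched members, 13 held CCAAT (31.0%), 9 an E2F core (21.4%) and 7 CACGTG (16.7%). Over all 32851 windows of that length the shares were 33.8%, 7.89% and 6.02%. A match is only a match of letters.

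Nme1 and Nme2 encode subunits of nucleoside diphosphate kinase, which passes phosphate between nucleotides and makes the triphosphates. Nme2 had signals of 16459, 16566, 16154 and 15997 in Lkb1 KO 4 to 7, against 14392, 14685 and 13285 in Lkb1 WT 5 to 7, with no overlap and a log2 fold change of 0.21 (adjusted p = 0.167). For Nme1, the brightest probe set gave 4025, 3372, 2535 and 1738 in Lkb1 KO 4 to 7, against 2842, 3219 and 2373 in Lkb1 WT 5 to 7, which overlapped, and the fold change was -0.00 (adjusted p = 0.995), with a 95% interval of -0.61 to 0.60. The KO samples themselves ran over a wide range on this probe set. A second, dimmer probe set of Nme1 was higher in each KO sample, by 0.94 log2 units (exact permutation p = 0.0286, the smallest possible). The probe sets of Nme1 thus disagreed, and with their mean the fold change was 0.47 (adjusted p = 0.102).

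Among pyrimidine genes, 2 of 11 tested rose and none fell, where 2.48% of all genes tested rose and 2.96% fell. The 11 had a median log2 fold change of 0.30 and a range of -0.08 to 0.70. The first steps of ring synthesis lie on the single large protein encoded by Cad, and Dhodh on the mitochondrial inner membrane and Umps complete uridylate. Cad had signals of 931, 629, 804 and 646 in Lkb1 KO 4 to 7, against 498, 517 and 526 in Lkb1 WT 5 to 7, without overlap, at 0.52 (adjusted p = 0.0711). Its other probe set differed by 0.59 (exact permutation p = 0.0286, the smallest possible). Umps had 1334, 1211, 1194 and 1220.1 in Lkb1 KO 4 to 7, against 985, 1155 and 891 in Lkb1 WT 5 to 7, also without overlap, at 0.30 (adjusted p = 0.137). Dhodh ranged over 543 to 783 in Lkb1 KO and 609 to 662 in Lkb1 WT, and its fold change was 0.07 (adjusted p = 0.804) with an interval of -0.26 to 0.40. Its dimmer probe set differed by 0.35 with overlap (exact permutation p = 0.143).

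CTP synthase, which turns UTP into CTP, gave the largest fold of all members. Ctps had signals of 1266, 1097, 1223 and 1504 in Lkb1 KO 4 to 7, against 875, 784 and 673 in Lkb1 WT 5 to 7. Every KO sample exceeded every WT sample, and the log2 fold change was 0.70 ± 0.13 (SE), adjusted p = 0.0285, or 1.62-fold. The other CTP synthase gene, Ctps2, had 1261, 1179, 1163 and 1203 in Lkb1 KO 4 to 7, against 1321, 1133 and 1355 in Lkb1 WT 5 to 7, with overlap, at -0.08 (adjusted p = 0.665) and an interval of -0.29 to 0.14. The log2 difference Ctps minus Ctps2 within an array averaged 0.07 ± 0.18 in Lkb1 KO and -0.70 ± 0.26 in Lkb1 WT (SD, n = 4 and 3). It was larger in each KO sample, by 0.77 (exact permutation p = 0.0286, the smallest possible, and 0.2 after Benjamini-Hochberg adjustment over 7 pairs). With 35 splits, 1 pair alone could not pass that adjustment, however far apart its groups.

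Of the thymidine nucleotide genes among the members, Dut rose, Tk1 and Dtymk did not pass and Tyms was not tested. Dut encodes dUTPase, which removes dUTP and yields the precursor of thymidylate, and had signals of 2310.4, 2086, 2037 and 2288 in Lkb1 KO 4 to 7, against 1452, 1147 and 1546 in Lkb1 WT 5 to 7. No KO sample fell within the WT range, and the log2 fold change was 0.66 ± 0.12 (SE), adjusted p = 0.0253. Its dimmer probe set differed by 0.26 with overlap (exact permutation p = 0.286). Tk1, the cytosolic thymidine kinase of dividing cells, had 888, 767, 558 and 658 in Lkb1 KO 4 to 7, against 481, 428 and 468 in Lkb1 WT 5 to 7, without overlap, at 0.61 (adjusted p = 0.0582). The spread within KO was wide, with Lkb1 KO 6 the lowest of its group. Dtymk, thymidylate kinase, had 3782, 3789.7, 3597 and 3983 in Lkb1 KO 4 to 7, against 2975, 3482 and 2981 in Lkb1 WT 5 to 7, without overlap, at 0.27 (adjusted p = 0.127), and its other probe sets differed by 0.37 and -0.23. Tyms had 3 probe sets with a single symbol, all below the filter, and the brightest gave 21.8, 21, 19.8 and 19.7 in Lkb1 KO 4 to 7, against 25.5, 28.8 and 1.1 in Lkb1 WT 5 to 7. These lie near the background level of 13.64 deposited signal units, so no fold is given for it. The mitochondrial thymidine kinase gene Tk2, outside the list, was at -0.50 (adjusted p = 0.122), with each KO sample below each WT sample.

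In pyrimidine salvage, Uck2, a uridine-cytidine kinase, had signals of 382, 284, 289 and 289 in Lkb1 KO 4 to 7, against 228, 244 and 228 in Lkb1 WT 5 to 7, without overlap, at 0.38 (adjusted p = 0.0974). Lkb1 KO 4 stood well above the other KO samples. A dimmer probe set of Uck2 past the filter differed by 0.68, also without overlap (exact permutation p = 0.0571). Dck, deoxycytidine kinase, ranged over 1479 to 1745 in Lkb1 KO and 1576 to 2030.4 in Lkb1 WT and was at -0.07 (adjusted p = 0.773), and Cmpk1, the UMP-CMP kinase, ranged over 1206 to 1428 in Lkb1 KO and 1273 to 1462 in Lkb1 WT and was at -0.01 (adjusted p = 0.969). Their groups overlapped, and the intervals of the fold were -0.34 to 0.21 for Dck and -0.24 to 0.22 for Cmpk1.

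**Figure D4:**
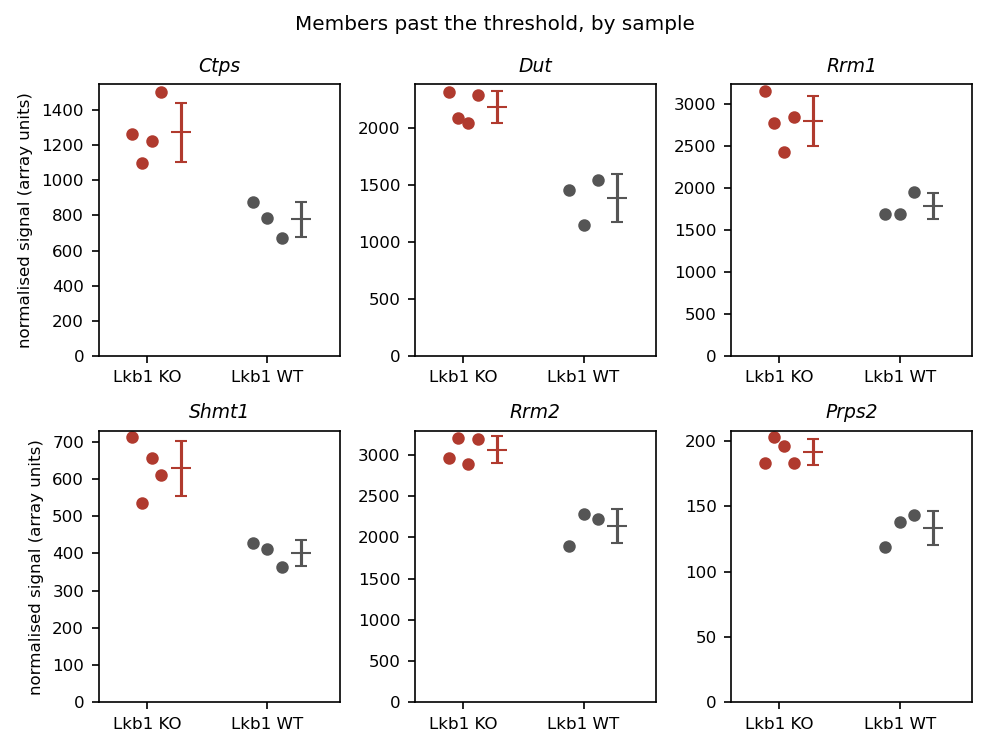
Normalised signal (y axis, array units from 0) of the 6 members past the threshold, with a point per sample (4 Lkb1 KO left, 3 Lkb1 WT right) and a bar for mean ± SD beside the points. In each panel every KO sample lies above every WT sample.

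Of 4 folate genes tested 1 rose and none fell, where 2.48% of all genes tested rose and 2.96% fell. The median log2 fold change of the 4 was 0.41, and all 4 were above 0, as were 47.6% of all genes. Shmt1 encodes the cytosolic and Shmt2 the mitochondrial serine hydroxymethyltransferase, which moves a carbon unit from serine to folate. Shmt1 had signals of 711, 535, 655 and 609.9 in Lkb1 KO 4 to 7, against 429, 412 and 363 in Lkb1 WT 5 to 7. The groups did not overlap, and the log2 fold change was 0.62 ± 0.12 (SE), adjusted p = 0.0283. Its other probe sets past the filter differed by 0.68 and 0.72. Shmt2 had 2052, 1710.1, 1870.5 and 2139 in Lkb1 KO 4 to 7, against 1406, 1582 and 1283 in Lkb1 WT 5 to 7, without overlap, at 0.44 (adjusted p = 0.0611). Of its dimmer probe sets 1 differed by 0.41 and the others by -0.25 and -0.16, each with overlap. Between the isozymes the fold differed by 0.18, with overlap between the groups (exact permutation p = 0.143).

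Mthfd1 encodes the cytosolic enzyme that interconverts folate-bound carbon units, and Mthfd2 the mitochondrial enzyme known from developing and dividing cells. Mthfd1 had signals of 1274, 1152, 880.1 and 943 in Lkb1 KO 4 to 7, against 773, 703 and 950.2 in Lkb1 WT 5 to 7, where Lkb1 WT 7 lay within the KO range, at 0.38 (adjusted p = 0.178). Mthfd2 had 235, 249, 283 and 274 in Lkb1 KO 4 to 7, against 197, 282 and 171 in Lkb1 WT 5 to 7, where Lkb1 WT 6 lay within the KO range, at 0.27 (adjusted p = 0.326). The intervals were 0.02 to 0.75 for Mthfd1 and -0.09 to 0.64 for Mthfd2.

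Of 10 purine genes tested 1 rose and none fell, where 2.48% of all genes tested rose and 2.96% fell. The median log2 fold change of the 10 was 0.30, and all 10 were above 0, as were 47.6% of all genes. Phosphoribosyl pyrophosphate synthetase supplies the activated sugar for the whole pathway. Its gene Prps2 had signals of 183, 203, 196 and 183 in Lkb1 KO 4 to 7, against 119, 138 and 143 in Lkb1 WT 5 to 7, without overlap, and a log2 fold change of 0.48 ± 0.10 (SE), adjusted p = 0.0313. Its dimmer probe set differed by 0.20 with overlap (exact permutation p = 0.114). The other gene, Prps1, had 711, 685, 712 and 721 in Lkb1 KO 4 to 7, against 574, 669 and 503.5 in Lkb1 WT 5 to 7, also without overlap, at 0.28 (adjusted p = 0.154). The difference between the folds of Prps1 and Prps2 was -0.19, with overlap between the groups (exact permutation p = 0.229).

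The ring is then built by Ppat, which commits the pathway, by the trifunctional enzyme of Gart, by Paics and by Adsl. Ppat had signals of 327, 230.4, 267 and 278 in Lkb1 KO 4 to 7, against 142, 222 and 194 in Lkb1 WT 5 to 7, without overlap, at 0.54 (adjusted p = 0.0881). Its dimmer probe set differed by 0.46 and did not overlap either (exact permutation p = 0.0286, the smallest possible). Gart had 1066, 952, 1015 and 1197 in Lkb1 KO 4 to 7, against 733, 962 and 755 in Lkb1 WT 5 to 7, where Lkb1 WT 6 lay just above the lowest KO sample, at 0.37 (adjusted p = 0.119). Adsl, adenylosuccinate lyase, had 523, 416, 394 and 387 in Lkb1 KO 4 to 7, against 343, 372 and 292 in Lkb1 WT 5 to 7, without overlap, at 0.34 (adjusted p = 0.16). Paics was nearly level, with 4587, 4840.5, 4714 and 4697 in Lkb1 KO 4 to 7, against 4531, 4797 and 4269 in Lkb1 WT 5 to 7, at 0.06 (adjusted p = 0.719) and an interval of -0.14 to 0.25. Its other probe sets differed by 0.20 and -0.22.

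Ppat and Paics lie head to head in the RefSeq annotation, with 5′ ends that overlap. The difference of log2 values, Ppat minus Paics, averaged -4.03 ± 0.23 in Lkb1 KO and -4.51 ± 0.29 in Lkb1 WT (SD, n = 4 and 3). It was higher by 0.48 in KO (exact permutation p = 0.0571, and 0.2 after adjustment over 7 pairs). The groups did not overlap, but the difference did not pass.

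At the branch to GMP and AMP, Impdh1, an IMP dehydrogenase, had signals of 540.1, 459, 543 and 564 in Lkb1 KO 4 to 7, against 451, 439.9 and 407 in Lkb1 WT 5 to 7, without overlap, at 0.27 (adjusted p = 0.143). Adss, adenylosuccinate synthase, ranged over 409.9 to 486 in Lkb1 KO and 404 to 459 in Lkb1 WT and was at 0.04 (adjusted p = 0.839). In salvage, Hprt, which returns hypoxanthine and guanine to the pool, had 3607, 3463, 3489 and 3701 in Lkb1 KO 4 to 7, against 3404, 2827 and 2458 in Lkb1 WT 5 to 7. Every KO sample was higher, by 0.31 (adjusted p = 0.151), and Lkb1 WT 5 lay close below the KO range. Aprt, which salvages adenine, ranged over 3512 to 4350.3 in Lkb1 KO and 3347 to 3855 in Lkb1 WT, with overlap, at 0.13 (adjusted p = 0.497).

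**Figure D5:**
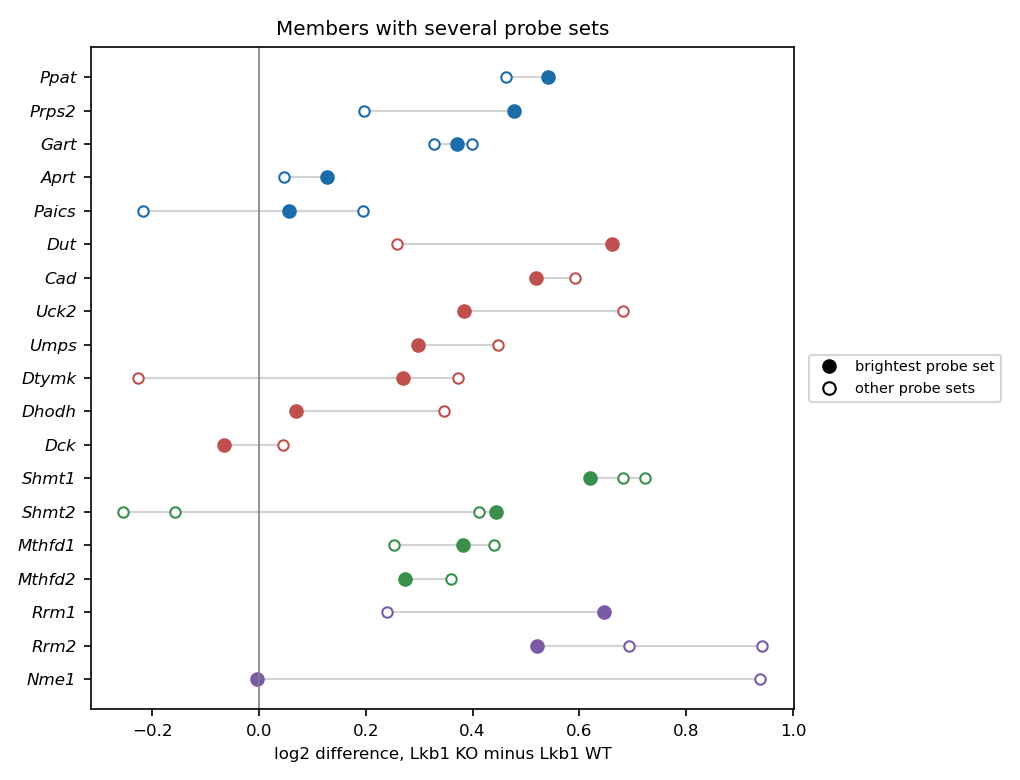
Log2 difference (x axis, Lkb1 KO minus Lkb1 WT) of each probe set past the brightness filter, for the 19 members with several (rows). Filled points are the brightest probe sets and open points the 27 others, of which 23 lie above 0.

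Across the 27 other probe sets past the filter, 23 were above 0, 11 had each KO sample above each WT sample and none had each below. Over all genes tested, each by its brightest probe set, 47.6% were above 0, 11.4% had each KO sample above and 12.7% each below. Probe sets of a gene share its RNA and are not replicates.

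A wider list of genes of these pathways gave no calls. Of 72 listed, 44 were tested and none passed in either direction with limma, where 2.48% of all genes rose and 2.96% fell. At an unadjusted p under 0.05, 9 of the 44 were higher and 4 lower, beside 11.7% and 13.6% of all genes. Their median log2 fold change was 0.06, with 27 above 0, and each KO sample lay above each WT sample in 7 of the 44 and below in 5, beside 11.4% and 12.7% of all genes. Among purine genes, Nudt1, which clears oxidised nucleotides, was at 0.40 (adjusted p = 0.0573), the adenosine kinase gene Adk at 0.36 (adjusted p = 0.0824) and the adenylate kinase gene Ak1 at -0.65 (adjusted p = 0.0751). Among pyrimidine genes, beside Tk2, the uridine phosphorylase gene Upp1 was at -0.40 (adjusted p = 0.118) and the nucleotidase gene Nt5c at 0.38 (adjusted p = 0.182). Among folate and serine genes, the glycine cleavage gene Gcsh was at 0.32 (adjusted p = 0.105), the serine synthesis gene Psat1 at 0.28 (adjusted p = 0.118) and the folylpolyglutamate synthase gene Fpgs at 0.32 (adjusted p = 0.336). Among the others, Samhd1, which breaks down deoxynucleotides, was at -0.33 (adjusted p = 0.126), with each KO sample below each WT sample, and Nme7 was at 0.31 (adjusted p = 0.155). Tests of the difference between these genes and the 29 members were not made.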

How the data were processed

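RNA of 7 samples was measured on Affymetrix mouse arrays. The deposited values are signal intensities on a linear scale, 1 per probe set and array, which the authors made with MAS5, per the submitters' processing notes. Its version and scaling were not stated in the sources used. The labels name the 430 2.0 array, while the deposited values cover 22690 probe sets, as on a smaller design, of which 64 are controls. In the platform annotation 20393 probe sets have 1 gene symbol and 691 several, and 20364 of those with 1 symbol matched the gene table of GRCm38.p6.

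Intensities were taken as log2(signal + 16), quantile normalised over non-control probe sets, and kept where the mean exceeded the 40th percentile. Normalised signals are those values turned back to the linear scale. Fold changes use log2(signal + 16) and so come out too small for dim genes. Background is the 95th percentile (13.64) of 189 readings of 27 controls for transcripts that were taken as not added. Groups were tested in R 4.3.3 by the linear models of limma 3.58.1 (lmFit, then eBayes, 5 residual degrees of freedom, Benjamini-Hochberg adjustment over 8077 genes). The fit was also run on simulated data with independent noise, which checks the code and not the spread between these samples. Differences within an array and single probe sets went through exact permutation tests, two-sided, on 35 splits, where the smallest p is 0.0286; probe set p-values are not adjusted. The members and lists were chosen with earlier results of these data known, and the pairs were tested after values were seen. Genes picked for naming were all 36 members, up to 3 other pathway genes of lowest p per class, and some genes past the threshold from the marker and cell cycle lists. Most of these list genes were counted in the text and not named. Alternatives covered pseudocount, scaling, filter, probe sets, prior variance, array weights, replicate number, Actb ratio and leaving out each sample.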

Additional observations from a re-analysis of the deposited data

Results flagged for a closer look

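Among 58 tested genes picked for naming, 2 had a KO sample far from the other KO samples, where chance gives about 1 in 20. For Uck2, Lkb1 KO 4 was the highest at a normalised signal of 383, against 284 to 289 in the other KO samples, so that its gap was 0.94 of the group's range. For Kit, the receptor that helps define the gate, Lkb1 KO 5 was the highest at 1399.5, against 1308 to 1323 in the other KO samples, a gap of 0.837 of the range.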

How the results depend on the processing

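Counts past the threshold were 439 genes, 6 members (1 purine, 2 pyrimidine, 1 folate, 2 acting on both kinds) and 0 of the wider list. They were 700 genes, 4 pyrimidine, 2 folate and 1 wider with a pseudocount of 64; 1415 genes, 20 members, 7 purine, 7 pyrimidine, 4 folate and 11 wider as deposited; 711 genes, 11 members, 3 purine, 4 pyrimidine, 2 folate and 4 wider after median centring; 715 genes, 4 pyrimidine, 2 folate and 2 wider with a filter at the 60th percentile; and 915 genes, 13 members, 3 purine, 5 pyrimidine, 2 folate and 5 wider with a trended robust prior variance. Without a filter 74 genes and 0 members passed, in each class 0, and with the mean of a gene's probe sets 0 purine members. Deviations of samples with the same number were weakly correlated (0.0292, 0.0988 and 0.0505). These values were not tested and cannot decide whether the numbers pair the samples, which the labels do not state. With the replicate block 1 gene and 0 members passed, in each class 0. With the Actb ratio as a covariate 0 genes passed by limma (713 at an unadjusted p under 0.05), 0 members and 0 in each class. Leaving out each sample gave 45 to 195 genes, 0 to 3 members, 0 to 0 purine, 0 to 2 pyrimidine, 0 to 1 folate, 0 to 1 acting on both kinds and 0 to 1 wider. The causes were not tested. None of the 6 called members changed sign. Signs did turn as deposited for Ctps2 (0.35), Cmpk1 (0.41), Dck (0.36), Nme1 (0.38) and Nme1 minus Nme2 (0.0774), and after median centring for Ctps2 (0.0843), Cmpk1 (0.15), Dck (0.0946), Nme1 (0.11) and Nme1 minus Nme2 (0.0774). With the mean of probe sets they turned for Nme1 (0.47), Rrm1 minus Rrm2 (-0.28) and Nme1 minus Nme2 (0.26), with the replicate block for Dhodh (-0.000402), and with the Actb ratio for Aprt (-0.0676) and Dhodh (-0.44). They turned without Lkb1 KO 4 for Dhodh (-6.88e-05) and Mthfd1 minus Mthfd2 (-0.026), without Lkb1 KO 5 for Adss (-0.00455), without Lkb1 KO 6 for Cmpk1 (0.0433) and Nme1 (0.039), and without Lkb1 KO 7 for Dhodh (-0.00721), Nme1 (0.22) and Nme1 minus Nme2 (0.00411). They turned without Lkb1 WT 5 for Nme1 (0.00898), without Lkb1 WT 6 for Cmpk1 (0.0451), Dck (0.0488), Nme1 (0.0991) and Mthfd1 minus Mthfd2 (-0.18), and without Lkb1 WT 7 for Adss (-0.00763). Over these 7 fits Adss reached 0.0822, Dhodh 0.16, Cmpk1 -0.0505, Dck -0.13, Mthfd1 minus Mthfd2 0.37 and Nme1 minus Nme2 -0.39 at the other end. Dim probe sets, such as those of Tyms, limit what could be tested.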
